A study of Mus musculus with 8 samples.

Results

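The comparison of eosinophils sorted as Siglec-Fint/CD101- with resident lung eosinophils rests on 6 of the 8 libraries of the study, taken by their sample titles: replicates 1 and 2 of the Siglec-Fint/CD101- cells and replicates 3 to 6 of the resident cells. The study profiled eosinophils from C57BL/6 mice in an asthma model, and its title ties resident lung eosinophils to IL-5. Libraries were made by CEL-Seq, in which RNA is amplified linearly and reads fall near the 3' end of each transcript. Siglec-F is a surface lectin of eosinophils that binds sialic acid, and CD101 is an immunoglobulin-family surface protein. The other 2 libraries, from SiglecFhi/CD101+ cells, served to estimate the spread and for a comparison of single genes. The labels name the strain for every group and no treatment, allergen, time, age, sex or pooling of animals, so any treatment given to 1 group alone cannot be told apart from the sort. They also do not say that replicates were separate mice, so p-values measure the spread between these libraries, which may be technical.

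In type 2 immunity, IL-4 and IL-13 act through the transcription factor STAT6 and switch on secreted proteins such as resistin-like alpha (Retnla), the chitinase-like proteins Ym1 (Chil3) and Ym2 (Chil4) and arginase 1 (Arg1), which are best known from alternatively activated macrophages and airway epithelium. IL-5 acts through its receptor and STAT5 to support eosinophil growth and survival. Mature eosinophils store peroxidase, major basic protein and ribonucleases of the Ear family in their granules.

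Retnla and Chil3 passed the test and are secreted type 2 effectors, and Chil4 is a close paralog of Chil3 with values of its own below, so the sequences in front of these genes are shown. They are RefSeq promoter sequences on GRCm38.p6, 5' to 3' on the gene's strand, each ending before the first annotated transcribed base: Retnla at chr16:48842359-48842550 on the plus strand, Chil3 at chr3:106167565-106167814 and Chil4 at chr3:106219508-106219729 on the minus strand. Capitals mark matches, on either strand, to 5 short motifs. The STAT6-type motif is TTC and GAA parted by 4 bases of any kind, and the STAT5-type motif is TTCNNNGAA. The C/EBP-type motif is TTGCNNAA, the GATA-type motif reads AGATAA, and the ETS-type motif reads GGAAGT.
Retnla: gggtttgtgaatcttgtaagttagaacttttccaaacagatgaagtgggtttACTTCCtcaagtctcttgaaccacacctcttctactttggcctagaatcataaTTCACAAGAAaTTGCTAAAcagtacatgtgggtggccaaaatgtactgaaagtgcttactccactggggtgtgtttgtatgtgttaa
Chil3: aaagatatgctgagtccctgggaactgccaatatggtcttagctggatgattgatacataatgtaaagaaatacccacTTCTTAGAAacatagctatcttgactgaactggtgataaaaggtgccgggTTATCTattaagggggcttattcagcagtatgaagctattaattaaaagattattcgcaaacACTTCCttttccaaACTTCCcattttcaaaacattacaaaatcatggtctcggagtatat
Chil4: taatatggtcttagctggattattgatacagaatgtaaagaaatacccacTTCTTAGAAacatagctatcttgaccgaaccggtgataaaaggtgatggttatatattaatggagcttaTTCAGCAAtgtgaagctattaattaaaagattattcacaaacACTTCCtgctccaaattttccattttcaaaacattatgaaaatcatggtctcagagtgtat

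Positions of matches count from the RefSeq gene start. Retnla held a STAT6-type match (TTCACAAGAA) at -145, a C/EBP-type match (TTGCTAAA) that began at -134, directly after a single base, and an ETS-type match on the other strand at -198. Chil3 and Chil4 held the same STAT5-type letters, TTCTTAGAA, at -172 and -200, and neither held a STAT6-type match in this window. Chil3 also held a GATA-type match at -122 and 2 ETS-type matches, and Chil4 a C/EBP-type match at -131 and 1 ETS-type match. Over 271 aligned bases of their windows of 300 bases, Chil3 and Chil4 were 92.6% identical. Among 32851 RefSeq promoter windows of 300 bases, 6.95% held the STAT6-type, 8.30% the STAT5-type, 11.2% the GATA-type, 10.8% the C/EBP-type and 23.8% the ETS-type letters, so each match is common and describes letters, not a site in use. Of other genes described below, Rnase2a held only a C/EBP-type match, and Ywhag, Ccl8, Chia1 and Slc26a4 held none of the 5. Arhgap1, which fell and has 2 windows in the table, held 2 GATA-type, 1 C/EBP-type and 4 ETS-type matches over both. Tppp3, Igha, Clca1 and Ccl11 were not matched to a window.

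The libraries of the 2 groups differed in depth. Total counts were 5600610 to 11583550 in resident libraries against 1517159 and 2990294 in Siglec-Fint/CD101- libraries. The mitochondrial genome took 38.6% to 61.8% of counts in resident and 69.9% and 83.9% in Siglec-Fint/CD101- libraries, which left 2137819 to 5296468 and 456930 and 481468 counts for all other genes. Resident libraries detected 12700 to 15997 genes, and the Siglec-Fint/CD101- libraries 7356 and 8514. Values are CPM, counts scaled to a library size adjusted by TMM, which aligns the bulk of genes between libraries. A floor of 3 counts corresponds to 0.199 to 0.501 CPM in resident and to 2.18 and 1.86 CPM in Siglec-Fint/CD101- libraries, so a gene at 1 CPM lies above the floor of every resident library and below that of both others. Intervals and floors cover counting error only.

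The transcripts behind the sort were low, and they followed the labels only in part. Siglecf was at 13.2, 43.9, 4.28 and 19.4 CPM in resident replicates 3 to 6, the order used throughout, and at 0 counts in the 2 Siglec-Fint/CD101- libraries, although Siglec-F is part of their label. Set against 3 counts over the 2 libraries, this is at least 20.5-fold lower, and it did not pass the test (adjusted p = 0.280, quasi-likelihood test of edgeR, Benjamini-Hochberg adjusted, as for every adjusted p below). Cd101 was at 33.3, 26.1, 4.21 and 33.5 CPM in resident libraries against 0 and 0.621 CPM, a single count, in Siglec-Fint/CD101- libraries (adjusted p = 0.288). Every resident library lay above both Siglec-Fint/CD101- libraries for both genes. In the SiglecFhi/CD101+ libraries, Siglecf was at 10.1 and 26.8 CPM, within the resident range, while Cd101 was at 1.06 and 0.610 CPM, 2 counts and 1, below every resident library although CD101 is part of their label. A transcript level need not follow the surface protein a sort reads, so these values do not settle whether tables and titles are matched correctly. Groups are named by the sample titles throughout, and every direction below holds only if these are right. Il5ra, the IL-5 receptor alpha chain, had 58 counts over the resident and 0 over the Siglec-Fint/CD101- libraries, and Epx, eosinophil peroxidase, had 25 and 0, too few to be tested. Prg2, which encodes major basic protein, had 355 and 4 counts (15.9, 4.95, 5.33 and 8.05 against 0.727 and 1.86 CPM, adjusted p = 0.311). The share of eosinophil RNA in any library is therefore unknown, and in sorted bulk samples fewer cells of a type and less RNA per cell cannot be told apart.

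Against resident libraries, 4 genes rose and 3 fell of 11828 tested, in all 0.0592%, at an adjusted p under 0.05. The genes that rose (0.0338% of genes tested) were Retnla and Chil3, the ribonuclease Rnase2a and the IgA heavy chain gene Igha. The genes that fell (0.0254%) were Tppp3, Ywhag and Arhgap1, which encode a microtubule-binding protein, an adaptor protein and a GTPase-activating protein. At an unadjusted p under 0.05, 225 genes were higher (1.90%) and 1637 lower (13.8%). The common biological coefficient of variation, the relative spread of a gene between libraries of one group, was 1.12.

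**Figure D1:**
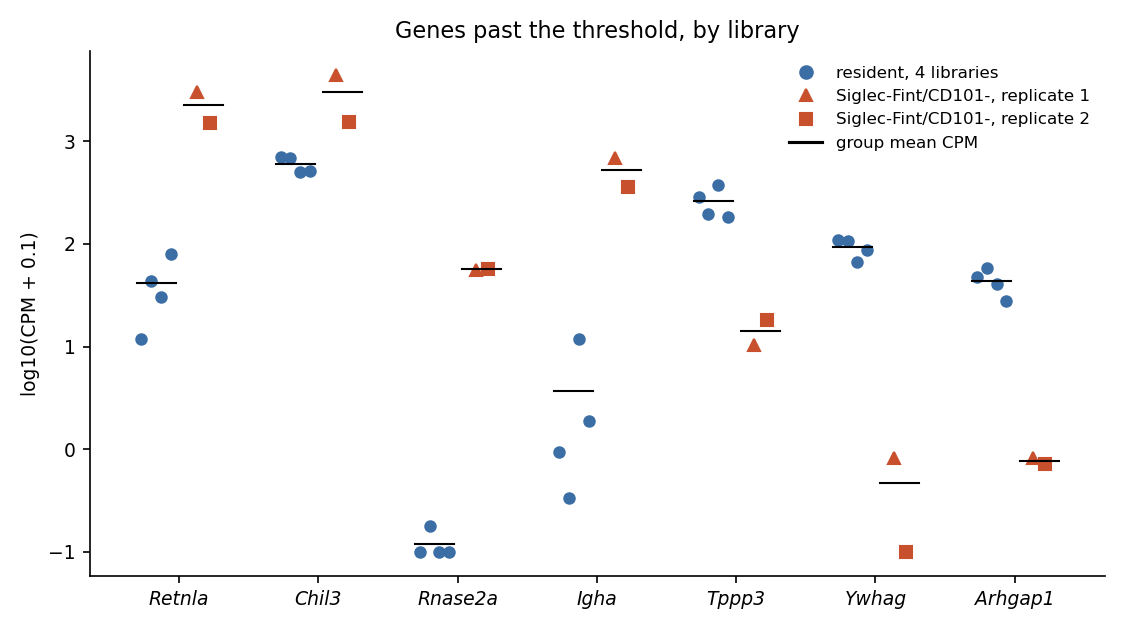
CPM of the 7 genes past the threshold in each library, on a log10(CPM + 0.1) axis, with circles for the 4 resident libraries, a triangle and a square for Siglec-Fint/CD101- replicates 1 and 2, and a bar at the group mean CPM. For each gene the 2 groups do not overlap, from Rnase2a, with 1 count over the resident libraries, to Ywhag, with 1 count over the Siglec-Fint/CD101- libraries.

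Among the secreted type 2 effectors, Retnla (chr16:48842551-48844461, GRCm38) was at 11.9, 43.1, 29.9 and 79.7 CPM in resident libraries against 2989.7 and 1499 CPM in Siglec-Fint/CD101- replicates 1 and 2. The lower Siglec-Fint/CD101- library was thus far above the highest resident library. The log2 fold change was 5.77 (SE 0.61, adjusted p = 0.00129). Resistin-like alpha is a small secreted protein induced by IL-4 and IL-13. The call was lost without Siglec-Fint/CD101- replicate 1 (5.12, adjusted p = 0.0558) and in a fit of the 6 libraries alone (5.81, adjusted p = 0.0537).

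Chil3 (chr3:106147554-106167564), which encodes the chitinase-like lectin Ym1, was at 708, 689, 501 and 517 CPM in resident libraries against 4453 and 1534 CPM in Siglec-Fint/CD101- libraries. Resident libraries lay close together, and replicate 1 was far above replicate 2. The log2 fold change was 2.31 (SE 0.38, adjusted p = 0.0409). Without replicate 1 it was 1.29 (adjusted p = 0.267). Of the 50-base words in the last 500 bases of the Chil3 transcript, 17.1% also occur in Chil4 or the gene model Gm6522, so reads of the paralogs could be shared. Chil4, which encodes Ym2, was at 0, 0.0786, 3.15 and 0.0665 CPM in resident and at 289 and 132 CPM in Siglec-Fint/CD101- libraries, without overlap (log2 fold change 7.91, adjusted p = 0.0723).

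Of the 12 type 2 effector genes, 11 were tested, 2 rose and none fell, and the median log2 fold change was 2.52, against -0.997 over all tested genes. Both Siglec-Fint/CD101- libraries lay above all resident libraries for 7 members, where 4.46% of all tested genes did so, and below them for 1, where 29.3% did. With any one of the 6 libraries left out, 7 or 8 members lay above and 1 to 3 below, a check added after the data were seen. Leaving out a library makes it easier to lie outside the range, and over all tested genes 600 to 2280 were then above in place of 527 and 3730 to 5709 below in place of 3461. Scaling by library totals alone gave 4 above and 2 below. Over the other scalings the median of these genes was 1.62 to 2.91, and that of all tested genes was -1.96 with library totals and -0.82 to -0.63 with the rest. Besides the 3 genes above, the members above all resident libraries were Chia1, Arg1, Retnlg and Pdcd1lg2. Chia1, acidic mammalian chitinase, was at 0.167, 1.97, 21.6 and 0 CPM against 295 and 78.2 CPM (adjusted p = 0.288). Arg1, which splits arginine, was at 0, 0.0786, 1.26 and 11.97 CPM against 99.6 and 13.04 CPM, so its replicate 2 was just above the highest resident library. Retnlg, a resistin-like gene of granulocytes that is also on the neutrophil list below, was at 261, 186, 51.0 and 449 CPM against 552 and 1451 CPM. Pdcd1lg2, the checkpoint ligand PD-L2, was at 19.2, 3.46, 0 and 3.59 CPM against 38.5 and 48.4 CPM. The C-type lectin gene Clec10a went the other way, with 17.9, 40.1, 10.4 and 6.52 CPM in resident and 0 counts in Siglec-Fint/CD101- libraries. None of these 5 passed the test.

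Alveolar macrophages are a known source of Chil3. The 16 alveolar macrophage markers, Chil3 included, summed to 1099 to 1929 CPM in resident and 2006 to 4962 CPM in Siglec-Fint/CD101- libraries. Without Chil3, the other 15 summed to 597 to 1241 CPM in resident libraries and to 509 and 472 CPM in Siglec-Fint/CD101- libraries, below all resident libraries. The sum without Chil3 was added after the data were seen, and it holds the eosinophil genes Siglecf and Ear2. Of the 16, 2 lay above all resident libraries (Chil3 and Fabp5) and 6 below, against 4.46% and 29.3% of all tested genes. Fabp5 was at 41.8, 22.7, 42.4 and 34.2 CPM in resident and at 101 and 78.2 CPM in Siglec-Fint/CD101- libraries. Marco, a scavenger receptor, was at 5.68 to 20.6 CPM in resident libraries against 0 and 1.24 CPM in Siglec-Fint/CD101- libraries, and Mcemp1, a myeloid membrane protein, was at 62.2 to 187 against 0 and 0.621 CPM. Goblet cells of the airway also make type 2 proteins. Clca1, a goblet cell product, was at 0, 1.18, 0 and 0.0665 CPM in resident and at 84.3 and 9.93 CPM in Siglec-Fint/CD101- libraries (adjusted p = 0.162), while the goblet markers Muc5ac and Agr2 had 0 counts in Siglec-Fint/CD101- replicates 1 and 2. Muc5ac and Agr2 belong to the 16 airway markers, of which 7 had 0 counts in both replicates and 3 had 0 over the resident libraries. Only 11 of the 16 had enough counts to be tested, and 23.1% of all tested genes had 0 counts in both replicates. The part of these cell types in the rise of Retnla and Chil3 was not tested beyond these values.

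The receptors and cytokines upstream of these effectors gave no call. Of 17 genes of type 2 cytokines and their receptors, 12 were tested, none passed (0 higher and 2 lower at an unadjusted p under 0.05), none lay above and 3 lay below all resident libraries, with a median of -0.89. These counts are no higher than the shares of all tested genes, 4.46% and 29.3%, would give. Without Siglec-Fint/CD101- replicate 2, 7 lay below, where 5709 of all 11828 tested genes did. Il1rl1, the IL-33 receptor ST2, was at 24.4, 74.4, 20.3 and 42.1 CPM in resident and at 1.45 and 0.621 CPM in Siglec-Fint/CD101- libraries (adjusted p = 0.284). Il13ra1, a chain of the IL-13 receptor, was at 23.2, 25.1, 13.1 and 15.8 CPM against 0 counts (adjusted p = 0.280). Stat6 itself was at 65.2, 46.2, 47.0 and 41.4 CPM against 25.4 and 27.3 CPM (log2 fold change -0.92, adjusted p = 0.709), and Il4ra, the IL-4 receptor alpha chain, overlapped between the groups.

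Chemokines lay on both sides. None of 17 tested passed (3 higher and 1 lower at an unadjusted p under 0.05), 2 lay above and 4 below all resident libraries (4.46% and 29.3% of all genes), and their median of -0.29 became 0.09 with RLE scaling and 0.02 with mitochondrial genes left out. Without Siglec-Fint/CD101- replicate 1, 7 lay below, and without replicate 2, 7 lay above. Of all 11828 tested genes, 5402 lay below and 2090 above in these cases. Ccl8, a chemokine that attracts T cells and eosinophils, had 1 count over the resident libraries and 9 and 111 counts in Siglec-Fint/CD101- replicates 1 and 2 (6.54 and 68.9 CPM, adjusted p = 0.145). Ccl11, which encodes eotaxin, the main eosinophil attractant of the airway, had 8 counts over the resident libraries and was at 29.1 and 11.2 CPM in Siglec-Fint/CD101- libraries (adjusted p = 0.253). Ccl22, made by dendritic cells and macrophages, was lower, at 276, 154, 66.0 and 163 CPM against 52.3 and 25.5 CPM (adjusted p = 0.288). Ccl9 was high in replicate 1 alone, at 731 CPM against 99.3 CPM in replicate 2 and 68.4 to 199 CPM in resident libraries. Its log2 fold change of 1.64 became -0.48 without replicate 1.

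**Figure D2:**
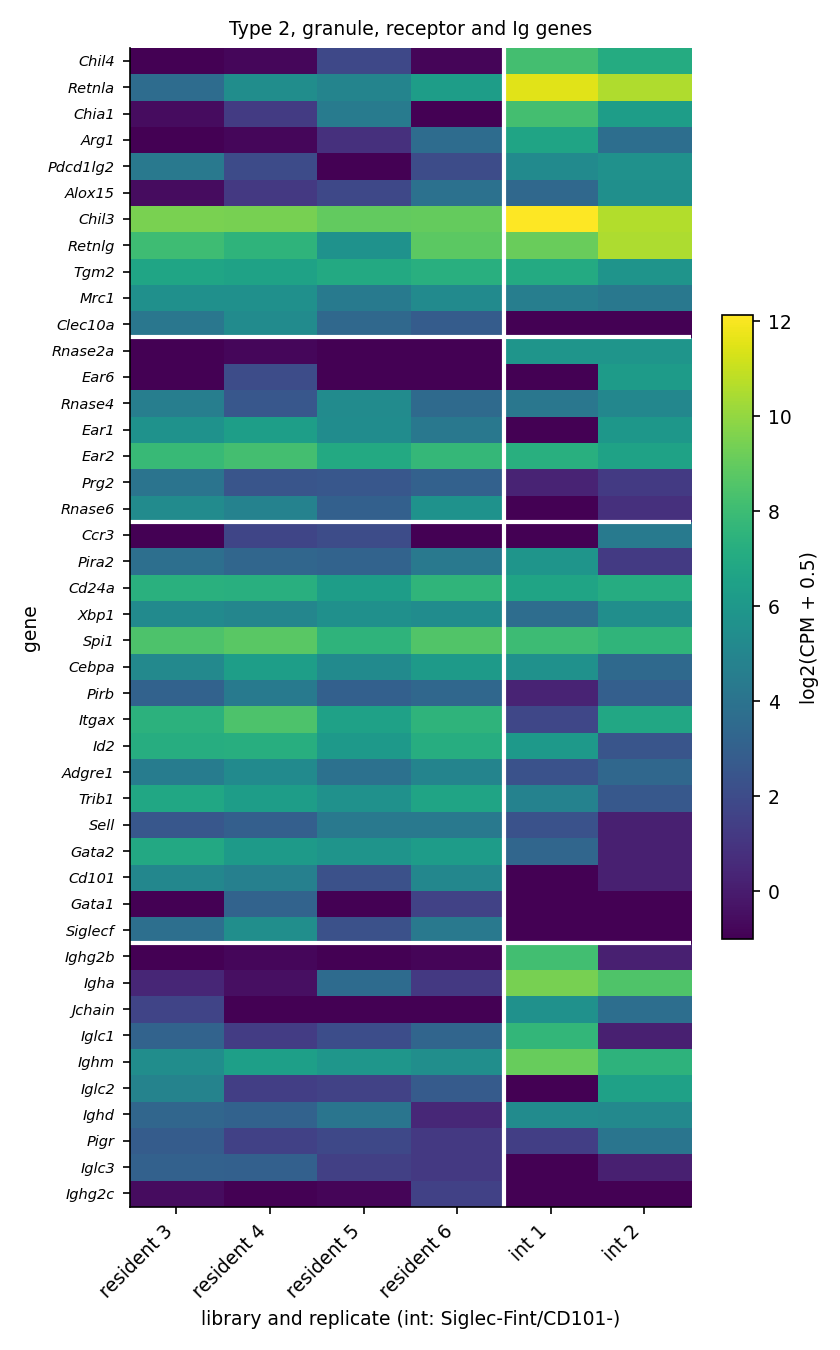
Levels of the tested members of 4 gene lists (type 2 effectors, granule proteins and ribonucleases, eosinophil receptors and lineage factors, immunoglobulin genes; white lines part the lists) in the 4 resident and 2 Siglec-Fint/CD101- (int) libraries, as log2(CPM + 0.5), with lighter colour for higher levels. The upper rows of the type 2 and immunoglobulin blocks are lighter in the int columns, and the lower rows of the receptor block are darker there, down to Siglecf with 0 counts.

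Among granule proteins and ribonucleases, Rnase2a (chr14:51255262-51256112), a member of the eosinophil-associated ribonuclease family, had 1 count over the 4 resident libraries and 77 and 92 counts in Siglec-Fint/CD101- libraries. That is 0, 0.0786, 0 and 0 CPM against 56.0 and 57.1 CPM, and the 2 Siglec-Fint/CD101- libraries agreed closely. Rnase2a passed the count filter only through these libraries and SiglecFhi/CD101+ replicate 1, where it was high. The count ratio was 2717 (95% interval 481 to 107944), and the log2 fold change was 10.49 (SE 1.75, adjusted p = 0.0409). None of the 50-base words in its last 500 bases occurred in the transcript of another gene. Its call was lost in each of the 6 fits that left out 1 library.

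No other gene of this list passed. Of 14 genes on this list, 7 were tested and 1 rose, where 0.0338% of all tested genes did. Above all resident libraries lay 1 and below them 2, against 4.46% and 29.3% of all tested genes. The count below is thus close to that share. The median was -0.65, against -0.997 over all tested genes. Ear6 had 0 counts in replicate 1 and 118 counts in replicate 2 (73.3 CPM), against 0, 3.62, 0 and 0 CPM in resident libraries. Its log2 fold change of 5.30 became -5.82 without replicate 2. Ear2 overlapped between the groups, at 225, 291, 125 and 211 CPM against 153 and 92.5 CPM, and 38.1% of the words in its last 500 bases occur in other genes. Rnase6, a ribonuclease of myeloid cells, was at 39.6, 27.5, 7.64 and 51.8 CPM against 0 and 1.24 CPM (adjusted p = 0.293). Epx, Prg3, Ear10, Ear14, Rnase2b and Ang had 0 counts in Siglec-Fint/CD101- replicates 1 and 2. Of this list, 5 members had 0 counts over the resident libraries, where Epx had 25 counts.

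No eosinophil receptor or lineage factor passed. Of 16 tested members, 0 were higher and 4 lower at an unadjusted p under 0.05, none lay above and 7 lay below all resident libraries, with a median of -1.78 against -0.997 for all genes, of which 29.3% lay below. With 1 library left out, 0 or 1 lay above and 7 to 11 below, 11 without resident replicate 5. Over all 11828 tested genes, 600 to 2280 then lay above and 3730 to 5709 below, 3850 without resident replicate 5. Gata2, a transcription factor of eosinophil, basophil and mast cell progenitors, was at 122, 71.2, 55.0 and 74.5 CPM in resident and at 9.45 and 0.621 CPM in Siglec-Fint/CD101- libraries (adjusted p = 0.249). Trib1, a pseudokinase that shapes eosinophil identity, was at 111, 79.4, 49.9 and 102 CPM against 27.6 and 5.59 CPM (adjusted p = 0.288). Adgre1, which encodes F4/80, was at 14.2 to 38.4 CPM against 4.36 and 9.93 CPM. Spi1, encoding PU.1, a factor of all myeloid cells, overlapped, with 184 to 440 CPM in resident and 257 and 188 CPM in Siglec-Fint/CD101- libraries.

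In the pathway of the cytokines IL-5, IL-3 and GM-CSF, none of 19 tested members passed (0 higher and 3 lower at an unadjusted p under 0.05), 1 lay above and 6 below all resident libraries, with a median of -0.78. The 6 are close to the 29.3% of all tested genes that lay below, and they were 13 without Siglec-Fint/CD101- replicate 1 and 9 without replicate 2 or resident replicate 5. Of all 11828 tested genes, 5402, 5709 and 3850 lay below in these cases. Csf2rb, the signalling chain shared by the 3 receptors, was at 202, 179, 106 and 235 CPM against 69.1 and 74.5 CPM (log2 fold change -1.33, adjusted p = 0.310). Socs2, a feedback inhibitor induced by STAT5, was at 100.3, 26.8, 47.1 and 38.5 CPM against 9.45 and 2.48 CPM (adjusted p = 0.288). Bcl2, a survival gene, was at 5.51 to 12.8 CPM against 0 counts, at least 10.1-fold lower. Il3ra, the IL-3 receptor alpha chain, was the member above, at 2.46 to 16.7 CPM in resident and 40.7 and 34.1 CPM in Siglec-Fint/CD101- libraries. Stat5a, Stat5b, Cish and Pim1 overlapped between the groups.

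Of 25 chemoattractant receptors, integrins and selectin ligand genes, by which granulocytes sense attractants and adhere, 23 were tested. Among these, 4 lacked any count in Siglec-Fint/CD101- replicates 1 and 2, a share under the 23.1% of all tested genes. None passed (0 higher and 6 lower at an unadjusted p under 0.05), none lay above and 9 lay below all resident libraries, where 29.3% of all genes did (median -1.17). Without resident replicate 5, or without Siglec-Fint/CD101- replicate 2, 15 lay below, where 3850 and 5709 of all 11828 tested genes did. Ltb4r1, the leukotriene B4 receptor, was at 68.3, 46.6, 18.8 and 42.0 CPM in resident libraries (1901 counts) and had 0 counts in Siglec-Fint/CD101- libraries, at least 39.4-fold lower (adjusted p = 0.162). Fpr1, a formyl peptide receptor, was at 22.7, 31.4, 33.0 and 36.5 CPM against 0 counts, at least 32.2-fold lower (adjusted p = 0.236). Cxcr2 and C5ar1 also had 0 counts. The integrin chain Itgb2, common to the leukocyte integrins, was lower by less, at 380, 531, 235 and 360 CPM against 113 and 222 CPM, while Ccr7 and Selplg overlapped.

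Among antibody genes, Igha (chr12:113254830-113260236) was at 0.836, 0.236, 11.6 and 1.80 CPM in resident and at 679.8 and 360.1 CPM in Siglec-Fint/CD101- libraries. The highest resident library, replicate 5, was still far below both. The log2 fold change was 7.14 (SE 1.17, adjusted p = 0.0409), and it ranged from 6.56 to 9.06 with 1 library left out. Ighm, the IgM heavy chain, was at 41.9, 83.6, 58.7 and 44.95 CPM against 539 and 181 CPM (adjusted p = 0.192). Jchain, which joins IgA and IgM into polymers, was at 2.67, 0, 0 and 0 CPM against 49.4 and 13.04 CPM.

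Other antibody genes differed between the 2 Siglec-Fint/CD101- replicates. Ighg2b had 396 counts in replicate 1 and 1 count in replicate 2, against 2 over the resident libraries. Iglc1 was at 206 CPM in replicate 1 and 0.621 CPM in replicate 2, and Iglc2 the reverse, at 0 and 91.3 CPM. Of 10 immunoglobulin genes tested, 1 rose, where 0.0338% of all tested genes did. Above all resident libraries lay 5 and below them 1, against 4.46% and 29.3% of all tested genes. The median was 2.43, against -0.997 over all tested genes. With 1 library left out 5 to 7 lay above, where 600 to 2280 of all 11828 tested genes did. Scaling by library totals alone left 3 above and 1 below.

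B cell and plasma cell markers were also higher in sum at TMM scaling, but not member by member. The 14 markers summed to 59.2 to 179 CPM in resident and 376 and 258 CPM in Siglec-Fint/CD101- libraries. Of 12 tested, 3 lay above and 3 below all resident libraries, where 4.46% and 29.3% of all tested genes did. Scaling by library totals alone left 1 above and 3 below. Cd79a, a chain of the B cell receptor complex, was at 34.9, 62.6, 30.6 and 16.8 CPM against 79.3 and 67.1 CPM. Ms4a1, encoding CD20, was at 0 CPM in replicate 1 and 58.4 CPM in replicate 2. Pax5, Blk, Prdm1, Derl3 and Tnfrsf17 had 0 counts in Siglec-Fint/CD101- replicates 1 and 2, where 23.1% of all tested genes did. Over the resident libraries, 1 of the 14 markers had 0 counts. The part of B cell lineage RNA in the rise of Igha was not tested.

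Of the genes that fell, Tppp3 (chr8:105467493-105471526), which encodes tubulin polymerization-promoting protein 3, was at 285, 197, 370 and 183 CPM in resident and at 10.2 and 18.0 CPM in Siglec-Fint/CD101- libraries. Both Siglec-Fint/CD101- libraries lay well below the lowest resident library. The log2 fold change was -4.19 (SE 0.70, adjusted p = 0.0409). Among 17 tested tubulin and microtubule genes it alone passed, 4 lay below and none above all resident libraries, against 29.3% and 4.46% of all genes. With either Siglec-Fint/CD101- library left out, 8 lay below, where 5402 (without replicate 1) and 5709 (without replicate 2) of all 11828 tested genes did. The abundant tubulins Tuba1b and Tubb5 overlapped, with log2 fold changes of -0.01 and 0.13. Tppp3 is also made by ciliated airway cells. The ciliated cell genes Foxj1, Dynlrb2, Ccdc153 and Tmem212 had 0 counts in Siglec-Fint/CD101- replicates 1 and 2. Of the 16 airway markers, these included, 7 had 0 counts there and 3 had 0 over the resident libraries. Only 11 of the 16 had enough counts to be tested, and 23.1% of all tested genes had 0 counts in both replicates. The part of ciliated cells was not tested.

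Ywhag (chr5:135908409-135934616), which encodes the phosphoserine-binding adaptor 14-3-3 gamma, was at 109, 108, 67.2 and 87.1 CPM in resident and at 0.727 and 0 CPM in Siglec-Fint/CD101- libraries. These are 4288 counts against 1, a ratio of 267 (95% interval 47.8 to 10537). The log2 fold change was -8.01 (SE 1.277, adjusted p = 0.0409). No other family member passed. Ywhab was at 302, 439, 346 and 425 CPM against 156 and 110 CPM (adjusted p = 0.296), while Ywhae, Ywhah, Ywhaq and Ywhaz overlapped between the groups, with log2 fold changes of 0.28, 0.70, 0.17 and -0.16.

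Arhgap1 (chr2:91649860-91672326), which speeds GTP hydrolysis by small GTPases, was at 47.5, 58.6, 40.9 and 27.5 CPM in resident and at 0.727 and 0.621 CPM, 1 count each, in Siglec-Fint/CD101- libraries. The count ratio was 63.0 (95% interval 17.4 to 521), and the log2 fold change was -5.98 (SE 0.96, adjusted p = 0.0409). Arhgap26, another GTPase-activating protein, was at 78.9, 57.5, 74.9 and 70.6 CPM against 2.18 and 1.24 CPM (adjusted p = 0.103). Neither group overlapped the other for either gene.

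For each of Chil3, Rnase2a, Igha, Tppp3, Ywhag and Arhgap1, the call was lost in 10 to 12 of 16 or 17 alternative analyses, while the direction held in all of them. Retnla was called in 15 of 17.

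The next genes by p, which did not pass, lay in both directions. On the higher side, Slc26a4, which encodes the anion exchanger pendrin of airway epithelium, had 3 counts over the resident and 118 and 31 counts in Siglec-Fint/CD101- libraries (ratio 798, 95% interval 268 to 3916, adjusted p = 0.162). Nos2, inducible nitric oxide synthase, had 4 counts over the resident and 11 and 140 in Siglec-Fint/CD101- libraries. Fbp1, a gluconeogenic enzyme, had 0 and 91, at least 488-fold higher. On the lower side, Cct6a, a chaperonin subunit, was at 64.5, 91.3, 62.4 and 68.0 CPM in resident and at 0.727 and 1.24 CPM in Siglec-Fint/CD101- libraries (adjusted p = 0.126). The kinase gene Map3k1 and the T cell adaptor gene Grap2 had no count in either Siglec-Fint/CD101- library, against 24.0 to 53.3 and 31.6 to 82.9 CPM, at least 33.5-fold and 44.5-fold lower. Map3k3, Got2 and Sf1 also lay below without overlap.

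**Figure D3:**
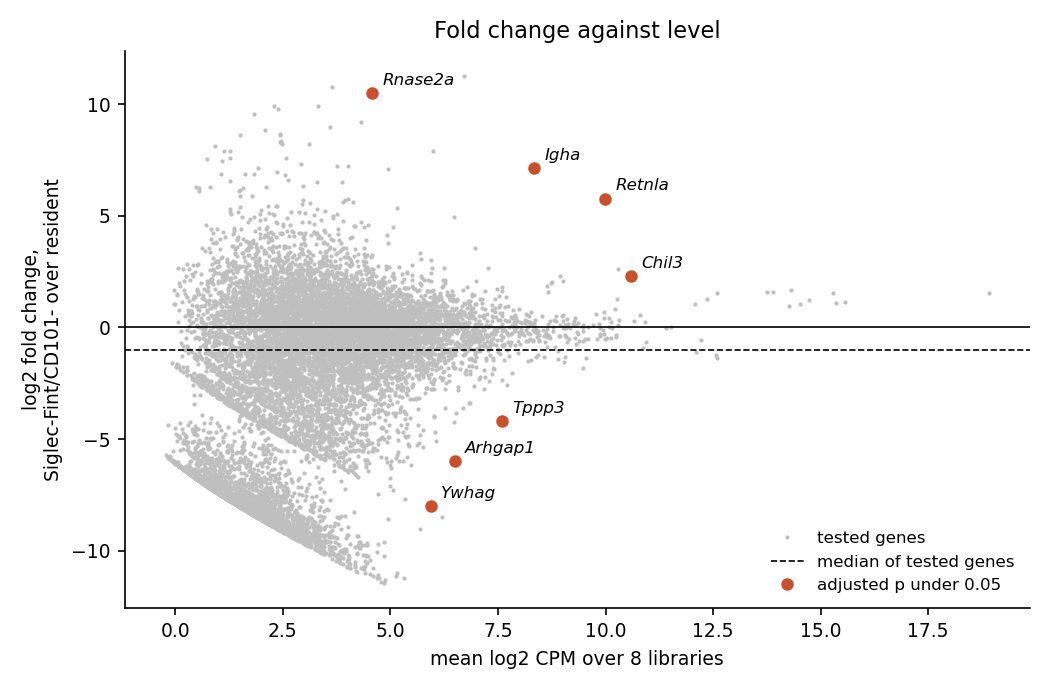
Log2 fold change of Siglec-Fint/CD101- over resident libraries against mean log2 CPM over the 8 libraries for the 11828 tested genes, with the 7 genes past the threshold named and a dashed line at the median of -0.997. The separate band at the lower left holds genes with 0 counts in both Siglec-Fint/CD101- libraries, and the 3 genes that fell lie at the right-hand edge of the lower cloud.

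Genes without a count in the Siglec-Fint/CD101- libraries were mostly of low resident level. The median of all tested genes was -0.997, and it was -0.13 over the 4728 genes with a count in each of the 6 libraries. Of the tested genes, 2735 had 0 counts in Siglec-Fint/CD101- replicates 1 and 2. Among the 3461 genes below all resident libraries, 1671 had 0 counts in both and 1790 had a count. When genes were split into 5 equal bins by resident level, 43.2% of the lowest bin were at 0 in both, with a median of -1.66, against 1.39% of the highest bin, with a median of -0.49. After all libraries were thinned to 1513517 counts, 9120 genes were tested in place of 11828. Of these, 1914 lay below all resident libraries in place of 3461, and 501 above in place of 527. Total counts were thinned, mitochondrial genome included, so the counts left for other genes were not made equal.

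The 2 Siglec-Fint/CD101- replicates shared a minority of their higher genes. Of 11828 tested genes, replicate 1 lay above all resident libraries for 2090 and replicate 2 for 2280. Common to both were 527, 25.2% and 23.1% of each set. Below all resident libraries were 5709 and 5402 of the 11828, with 3461 in common, 60.6% and 64.1%. The Spearman rank correlation of the 2 replicates was 0.207. It was 0.433 to 0.558 between them and resident libraries and 0.695 to 0.766 among resident libraries. Each pair was taken over genes with a count in at least 1 of its libraries.

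By counts, not scaled to length, the highest gene outside the mitochondrial genome in both Siglec-Fint/CD101- libraries was the lincRNA gene Gm42418, at 5179, 4850, 2892 and 1976 CPM in resident and at 8078 and 9849 CPM in Siglec-Fint/CD101- libraries. It lay above all resident libraries and did not pass (log2 fold change 1.27, adjusted p = 0.288). Other abundant genes included H2-Ab1, Cd74, H2-Eb1 and H2-Aa of MHC class II, B2m, Actb, ribosomal protein genes, the club cell gene Scgb1a1, the surfactant gene Sftpc, Chil3 and Retnla. H2-Aa was at 9089, 15074, 4359 and 9977 CPM in resident and at 5481 and 1876 CPM in Siglec-Fint/CD101- libraries (log2 fold change -1.39, adjusted p = 0.288). Cd74, the invariant chain, was at 8046, 14405, 4617 and 9648 CPM against 4831 and 2888 CPM. None of 16 MHC class II pathway genes passed (0 higher and 6 lower at an unadjusted p under 0.05), and 4 lay below all resident libraries, with a median of -1.16. Over all tested genes 29.3% lay below. The 4 became 10 without resident replicate 5 and 13 without Siglec-Fint/CD101- replicate 1, where 3850 and 5402 of all 11828 tested genes lay below. Resident replicate 5 was the lowest resident library for H2-Aa and Cd74 and lay within the range of the 2 Siglec-Fint/CD101- libraries.

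Of the 13 protein genes of the mitochondrial genome, none passed, 12 were higher at an unadjusted p under 0.05, and 4 lay above all resident libraries, where 4.46% of all genes did (median 1.21). Without resident replicate 3, 8 lay above, and without Siglec-Fint/CD101- replicate 1, all 13, where 625 and 2280 of all 11828 tested genes did. mt-Co1, a subunit of cytochrome c oxidase, was at 13431, 12146, 6239 and 10770 CPM in resident and at 21245 and 46873 CPM in Siglec-Fint/CD101- libraries (adjusted p = 0.145). Scaling by library totals brought the median of this list to 0.13 and left 2 members above. Of 73 nuclear genes of oxidative phosphorylation, none passed (2 higher and 1 lower at an unadjusted p under 0.05), 12 lay above and 10 below all resident libraries, with a median of -0.04, where 4.46% and 29.3% of all genes did so. Without Siglec-Fint/CD101- replicate 1, 20 lay above and 31 below, and without replicate 2, 25 and 21. Of all 11828 tested genes, 2280 lay above and 5402 below in the first case, and 2090 and 5709 in the second. The split of all 6 libraries was 20 and 5 with RLE scaling (median 0.32) and 1 and 27 with library totals (median -0.94). Ndufa8, a complex I subunit, was at 7.69, 17.6, 22.01 and 14.4 CPM against 105 and 156 CPM (adjusted p = 0.194), and Ndufa4 at 6.52 to 12.8 CPM against 0 counts. Medians near 0 were also found for 74 cytosolic ribosomal protein genes (-0.05) and 37 proteasome subunit genes (0.03), and these were 0.32 and 0.40 with RLE scaling and -0.87 and -0.90 with library totals.

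**Figure D4:**
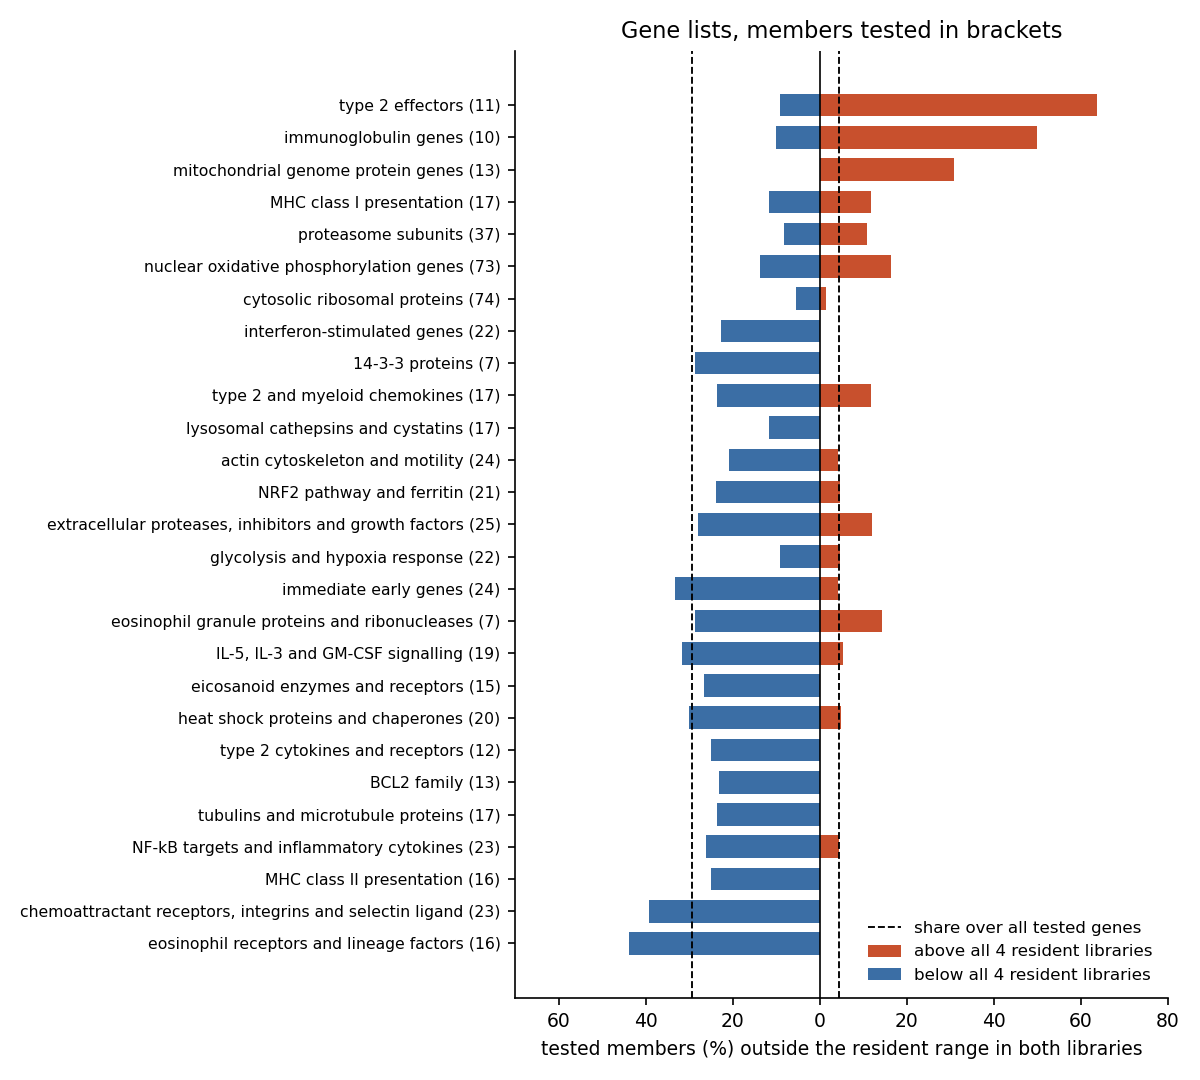
Share of tested members of each pathway list shown for which both Siglec-Fint/CD101- libraries lay above (right) or below (left) all 4 resident libraries, with dashed lines at the shares over all tested genes, 4.46% and 29.3%. Type 2 effectors, with 7 of 11, among them Retnlg, which is also a neutrophil marker, extend furthest to the right. Eosinophil receptors and lineage factors, with 7 of 16, extend furthest to the left.

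In 4 stress and activation lists no gene passed, and the members below all resident libraries were close to or under the 29.3% of all tested genes, with those above close to 4.46%. In the order given here, 0, 0, 0 and 1 were higher and 4, 4, 5 and 2 lower at an unadjusted p under 0.05. Of 24 immediate early genes, 8 lay below and 1 above all resident libraries (median -0.57), among them Nr4a1, an early response nuclear receptor, at 169, 190, 83.6 and 129 CPM against 39.3 and 31.0 CPM (adjusted p = 0.288). Of 20 heat shock and chaperone genes, 6 lay below and 1 above (median -0.83), with Hspa1b, an inducible heat shock protein, at 456 to 1136 CPM against 364 and 271 CPM. Of 21 NRF2 pathway and ferritin genes, 5 lay below and 1 above (median -0.43). Sqstm1, the autophagy receptor p62, was at 700.4, 1077, 521 and 688 CPM against 310 and 204 CPM (adjusted p = 0.268), and Hmox1, heme oxygenase 1, at 8.19 to 15.4 CPM against 0 counts. Of 23 NF-kB target genes, 6 lay below and 1, the IL-1 receptor antagonist gene Il1rn, above, at 11.4 to 26.4 CPM against 105 and 54.0 CPM. Without Siglec-Fint/CD101- replicate 1, the members below in these 4 lists were 13, 11, 12 and 13, and without replicate 2 they were 11, 11, 11 and 10. Of all 11828 tested genes, 5402 and 5709 lay below in these cases. Without resident replicate 3, 11 heat shock and chaperone genes lay below, and without resident replicate 5, 13 NF-kB target genes did, where 4236 and 3850 of all tested genes did. Among extracellular proteases and inhibitors, Timp1, an inhibitor of metalloproteinases, had 3 counts over the resident and 30 and 36 in Siglec-Fint/CD101- libraries (adjusted p = 0.184).

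Markers of other cell types were present in both groups. Besides the B cell list, the neutrophil list summed to 212 to 514 CPM in resident and 1066 and 1631 CPM in Siglec-Fint/CD101- libraries, and without Retnlg and Lcn2 to 20.1 to 112 CPM against 44.3 and 82.0 CPM. The sum without Retnlg and Lcn2 was added after the data were seen. Lcn2, a siderophore-binding protein also made by epithelium, was at 10.7, 5.82, 68.5 and 12.7 CPM against 470 and 98.1 CPM (adjusted p = 0.243), while Elane, Mpo and Camp had 0 counts in Siglec-Fint/CD101- replicates 1 and 2. Of the 15 neutrophil markers, 5 had 0 counts there and 1 had 0 over the resident libraries. Only 10 of the 15 were tested, of which 2 lay above and 2 below all resident libraries. Of all tested genes, 23.1% had 0 counts in both replicates. T, NK and innate lymphoid markers summed to 93.9 to 148 CPM against 177 and 232 CPM, from different genes in each replicate: Trac was at 105 CPM in replicate 1 and 0 in replicate 2, and Cd4 at 0 and 145 CPM. Of 13 tested members, 0 lay above and 3 below all resident libraries, where 4.46% and 29.3% of all tested genes did. The sums of the alveolar epithelial, endothelial and fibroblast, airway and erythrocyte lists overlapped between the groups, but some single members did not. Of 17 endothelial and fibroblast markers tested, 4 lay above all resident libraries and none below (median 0.64), against 4.46% and 29.3% of all genes, and 8 lay above without resident replicate 5 or without Siglec-Fint/CD101- replicate 1. Of all 11828 tested genes, 702 and 2280 lay above in these cases. Tie1, an endothelial receptor, was at 120, 43.7, 195 and 101 CPM against 310 and 492 CPM (adjusted p = 0.289). Of 15 alveolar epithelial markers, 2 lay above and 3 below, with 6 above without resident replicate 5, and 4 above and 6 below without Siglec-Fint/CD101- replicate 2. Over all tested genes, 702 lay above in the first case, and 2090 above and 5709 below in the second. Sftpa1, a surfactant gene, was at 148, 22.3, 459 and 66.8 CPM against 768 and 602 CPM (adjusted p = 0.289), while Sftpc, of alveolar type II cells, overlapped, at 595, 111, 2653 and 265 CPM against 1616 and 1626 CPM. The part of these cells in the differences above was not tested.

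**Figure D5:**
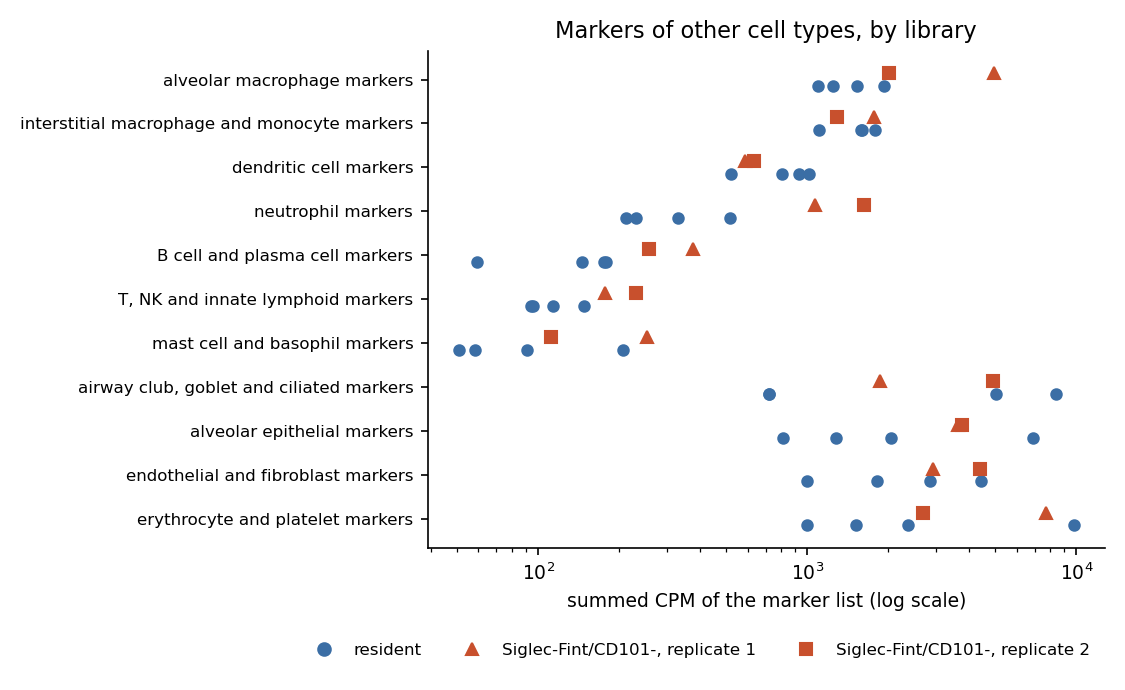
Summed CPM of 11 marker lists of other cell types on a log axis, with circles for resident libraries and a triangle and a square for Siglec-Fint/CD101- replicates 1 and 2. At TMM scaling, the neutrophil, B and plasma cell, T/NK and, with Chil3 included, alveolar macrophage sums are above all resident libraries in both replicates, and the sums of the other lists overlap. Sums were not computed with other scalings. With library totals, 0, 1, 0 and 0 tested members of these lists, in this order, lay above all resident libraries, in place of 2, 3, 0 and 2.

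The 7 genes were also compared between the subsets titled Siglec-Fint/CD101- and SiglecFhi/CD101+, the latter with the Cd101 counts given above. Arhgap1 was at 191 and 350 CPM in SiglecFhi/CD101+ replicates 1 and 2, and it was lower in Siglec-Fint/CD101- libraries by 8.62 on the log2 scale (SE 1.08, adjusted p = 0.00957). Ywhag was at 68.9 and 47.6 CPM and Tppp3 at 348 and 135 CPM in the SiglecFhi/CD101+ libraries, and Siglec-Fint/CD101- libraries lay below both for each gene. Their differences of -7.34 (SE 1.29) and -4.09 (SE 0.72) did not pass (adjusted p = 0.105 for each). Retnla was at 2527 and 982 CPM and Chil3 at 2143 and 1754 CPM in the SiglecFhi/CD101+ libraries, and the ranges overlapped those of the Siglec-Fint/CD101- libraries. Their log2 differences were 0.36 (SE 0.67, adjusted p = 0.854) and 0.62 (SE 0.46, adjusted p = 0.476). Igha, at 130 and 1410 CPM, and Rnase2a, at 76.9 and 0.610 CPM, differed between the 2 SiglecFhi/CD101+ libraries by more than the subsets did from each other (-0.57, SE 1.22, adjusted p = 0.885, and 0.54, SE 1.56, adjusted p = 0.942). With SEs of this size, a p that misses the threshold does not show equal levels.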

How the data were processed

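The authors deposited 1 table of whole-number read counts per Ensembl gene for each library, not normalized, since their totals differ. Tools listed in the submitters' processing notes are TopHat2 2.1.0, Bowtie2 2.2.6, HTSeq 0.6.1, cutadapt 1.10, Trim Galore, FastQC 0.11.5 and DESeq2 1.28.0. Not given in the sources used here are genome build, annotation, strand setting and handling of molecular identifiers, so counts may include amplification copies, and overlapping or antisense genes may share reads. Groups came from sample titles. The letters in the names of the tables (R for the Siglec-Fint/CD101- group, N for the resident group, I for the third) have no stated meaning, and R could also stand for resident. If titles and tables were crossed between the 2 groups, every direction in the results would turn.

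Of 54446 gene rows, 54409 matched a GENCODE symbol on GRCm38, and 11828 passed filterByExpr. Genes with almost no resident counts, such as Rnase2a, Fbp1, Ccl8, Timp1 and Slc26a4, passed it only through libraries outside the resident group. Counts of all 8 libraries were fitted in R 4.3.3 with edgeR 4.0.16 (TMM, group means, robust quasi-likelihood, two-sided, Benjamini-Hochberg adjusted p under 0.05). SEs are approximate, from the fold change and its F statistic. The fit was tested on simulated data. A fold given as a lower bound sets a group without counts to 3, and count ratios carry exact 95% intervals. In lists, above and below mean both Siglec-Fint/CD101- libraries outside the range of all 4 resident libraries, without a test. Members, 28 pathway lists and 11 marker lists were chosen with earlier results of these data known, and a few items among them are not reported here.

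Named genes are all genes past the threshold, the next 8 in each direction by p (at or above the median level, without overlap, predicted genes left out), the 15 most abundant nuclear genes of the Siglec-Fint/CD101- libraries, Siglecf, Cd101, Il5ra, Epx and Prg2, up to 4 tested members of each pathway list by p and up to 3 of each marker list by level. Other named genes are list members chosen after their values were seen. Alternatives were other scalings (RLE, upper quartile, library totals, no mitochondrial genes), limma 3.58.1 (voom), DESeq2 1.42.0, other filters, a non-robust fit, the 6 libraries alone, thinning, a stricter threshold and leaving out each library.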

Additional observations from a re-analysis of the deposited data

Results flagged for a closer look

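In 13 named genes and 4 list sums, 1 of the 4 resident libraries stood far from the other 3, by a gap above Dixon's 95% critical value. For normally distributed values, chance gives this in about 1 of 20 groups. The value was applied to CPM that were not log-transformed, so the rate by chance is unknown here. In all, 151 genes and 39 lists were looked at. Resident replicate 5 was the high one for Igha (11.6 CPM, the others 0.236 to 1.80), Chil4 (3.15 CPM, 0 to 0.0786), Chia1 (21.6 CPM, 0 to 1.97), Epx (1.75 CPM, 0 in the others), Egln3 (24.2 CPM, 0 to 2.66), Lcn2 (68.5 CPM, 5.82 to 12.7) and Trac (8.20 CPM, 0.0665 to 0.334). For Igha, Chil4, Chia1 and Lcn2 it was still below both Siglec-Fint/CD101- libraries. Resident replicate 5 was also apart in 3 list sums: low for the pathway of IL-5, IL-3 and GM-CSF (1227 CPM, 2287 to 2408 in the others) and for NF-kB targets (1896 CPM, 3631 to 3959), and high for extracellular proteases, inhibitors and growth factors (735 CPM, 509.9 to 531).

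Resident replicate 3 was the high one for Hba-a1 (3210 CPM, 346 to 624), Hbb-bs (2009 CPM, 384 to 525), the erythrocyte and platelet sum (9796 CPM, 999 to 2374) and Tubg1 (8.52 CPM, 2.66 to 3.15). Resident replicate 6 was high for Il5ra (3.79 CPM, 0 to 0.167) and Cpa3 (49.1 CPM, 0.841 to 5.66), and resident replicate 4 for Ear6 (3.62 CPM, 0 in the others).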

How the results depend on the processing

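Against 4 higher and 3 lower genes, RLE scaling called 7 and 2, library totals 1 and 2, a non-robust fit 1 and 0, no filter 74 and 62, a filter of 20 counts in 2 libraries 1 and 0, the 6 libraries alone 0 and 0, thinning 7 and 2, limma-voom 2 and 0, DESeq2 101 and 548, and an adjusted p under 0.01 1 and 0. Upper-quartile scaling and TMM without mitochondrial genes gave 4 and 2 and 4 and 3. With 1 library left out, 0 to 3 were higher and 0 to 0 lower. Genes above all resident libraries (527) were 132 with library totals and 600 to 2280 with 1 library left out. Genes below (3461) were 1914 of 9120 tested after thinning and 3730 to 5709 with 1 left out. The median over all genes was -1.96 to -0.57 with all libraries, and -4.42 to -0.72 with 1 left out. At 0 calls in the 6 libraries alone, Retnla had an adjusted p of 0.0537. Of 1444 values of 86 genes, 1300 kept direction and side of the threshold, 69 lost a call, 73 gained one and 2 turned: Ccl9 (-0.48 without Siglec-Fint/CD101- replicate 1, 2.435 without replicate 2) and Ear6 (6.23 and -5.82). Only the 7 called genes could lose a call, and all of them but Retnla lost it in 10 to 12 of 16 or 17 alternatives. Most of the 1300 values belong to genes that were called neither in the main fit nor in the alternative. The cause of the changes between alternatives was not tested, apart from what fewer genes, libraries or counts bring by construction. No paired analysis was possible because the compared groups share no replicate number (3 to 6 against 1 and 2).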
